A study of Homo sapiens with 5 samples.

Results

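SR proteins and heterogeneous nuclear ribonucleoproteins (hnRNPs) are the 2 main classes of proteins that decide which splice sites of a pre-mRNA are used. The genes described here are the rows of a ribosome footprint count table whose symbol begins with SRSF, 11 genes, or with HNRNP, 19 genes, 30 of 13638 rows in all, and 1 further symbol with these prefixes was left out when the members were chosen. The footprints came from HAP1, an established near-haploid human cell line of leukaemic origin, in 3 libraries labelled ZCCHC4 knockout and 2 libraries labelled wild type. ZCCHC4 is named in the series title as the methyltransferase that places N6-methyladenosine on 28S ribosomal RNA. The labels do not say how the knockout was made, whether it is a clone, or whether the libraries of a genotype came from separate cultures, and so p-values reflect variation among these libraries only, which could be technical. All 5 libraries were made from lysates treated with cycloheximide, and no other treatment is given. The labels conflict on what was sequenced, since the molecule field says polyA RNA while the protocol describes ribosome footprints cut from a gel. The protocol is followed here, and if the field were right the values would be mRNA levels.

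SR proteins carry RNA recognition motifs followed by a tail of alternating arginine and serine. Bound to exonic enhancers, they recruit the core splicing machinery, and their phosphorylation by SRPK and CLK kinases sets their place in the nucleus. hnRNPs form a looser group of abundant RNA-binding proteins with RNA recognition, KH or other domains, many of them bind silencer sequences, and several oppose SR proteins at shared sites. Many genes of both classes limit their own output by splicing in an exon with a premature stop codon, which sends the transcript to nonsense-mediated decay. Footprints are the stretches of mRNA covered by ribosomes and so spared by RNase. Their number for a gene depends on how much of its mRNA is present and on how densely that mRNA is translated, and these were not separated here.

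The knockout libraries held 29191146, 16940732 and 31557573 counts and the wild-type libraries held 5302160 and 4887380 counts, so depth moved with genotype. Levels are given as CPM, edgeR's library-size normalised read count after TMM scaling, on which 1 count equals 0.0339 to 0.0619 CPM in the knockout libraries and 0.172 to 0.187 CPM in the wild-type libraries. ZCCHC4 itself stood at 3.85, 3.41 and 4.98 CPM in the knockout libraries, against 16.0 and 13.3 CPM in the wild-type libraries. It fell by 1.82 ± 0.20 on the log2 scale (log2 fold change -1.82, edgeR adjusted p = 7.27e-05). Chi-square per degree of freedom, near 1 for counting noise alone, was 2.97 between knockout replicates 1 and 3, 27.7 and 24.6 between knockout replicate 2 and these, and 1.14 between the wild-type libraries. Calls that changed without replicate 2 are therefore also given without it. CD34, a surface marker of blood progenitors, had no count in the knockout libraries and 0.345 and 0.373 CPM in the wild-type libraries. These were 2 counts in each wild-type library, too few for the gene to be tested. BCR and ABL1, the genes joined in the leukaemia from which the line came, were counted at 4.27 to 4.54 and 0.557 to 0.770 CPM in the knockout libraries, against 6.38 to 7.28 and 0.747 to 1.55 CPM in the wild-type libraries, although the table does not show a fusion.

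The genotypes were compared to see how footprint counts of these genes stood, relative to other genes, in cells labelled as lacking ZCCHC4. Both classes of splicing regulators were mostly higher in the knockout libraries. Of the 11 SR protein genes 8 rose and 3 did not pass, and of the 19 hnRNP genes 13 rose, 1 fell and 5 did not pass. A call needed an adjusted p under 0.05 from the quasi-likelihood test of edgeR, with Benjamini-Hochberg adjustment over 11205 rows. Over all tested rows 30.2% were called higher and 29.8% lower. The count of SR proteins lower was 0 in edgeR, 0 at an unadjusted p under 0.05 and 0 in DESeq2. Scaled by library totals alone, 6 SR proteins and 11 hnRNPs were called higher, where 21.3% of all rows were, and 2 hnRNPs lower, where 40.7% were. The median log2 fold change was 0.52 for the SR proteins, 0.72 for the hnRNPs and 0.02 over all rows. Scaled by library totals these medians were 0.30 for the SR proteins, 0.50 for the hnRNPs and -0.20 over all rows. As residuals from a spline on coding length and GC content they were 0.32 for the SR proteins and 0.71 for the hnRNPs. The last value leaves out HNRNPCL4, which the main hnRNP median includes. In the main fit the 14 hnRNPs with under 50% of their 30-nt coding windows found in other genes had a median of 0.46, below that of the SR proteins. All 30 members passed the filter on low counts, although HNRNPCL4 did so through the knockout libraries alone. At least a 2-fold rise was called for 4 hnRNPs and for no SR protein, against 10.0% of all rows. With library totals this held for 2 hnRNPs, HNRNPA1L2 and HNRNPF, against 6.81% of all rows. With upper quartile scaling, or a mean count of at least 50, it held for 3 hnRNPs, against 8.87% and 8.67% of all rows. With no filter, or without knockout replicate 2, it held for 6 hnRNPs, against 9.08% and 10.2%. These 6 include HNRNPCL4, which had no wild-type count. All knockout libraries lay above both wild-type libraries for 8 SR proteins and 14 hnRNPs with counts in both genotypes, against 38.5% of all rows, and below both for SRSF12 and HNRNPUL1, against 37.9%. Higher and lower are relative to other genes, since counts were scaled between libraries.

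**Figure D1:**
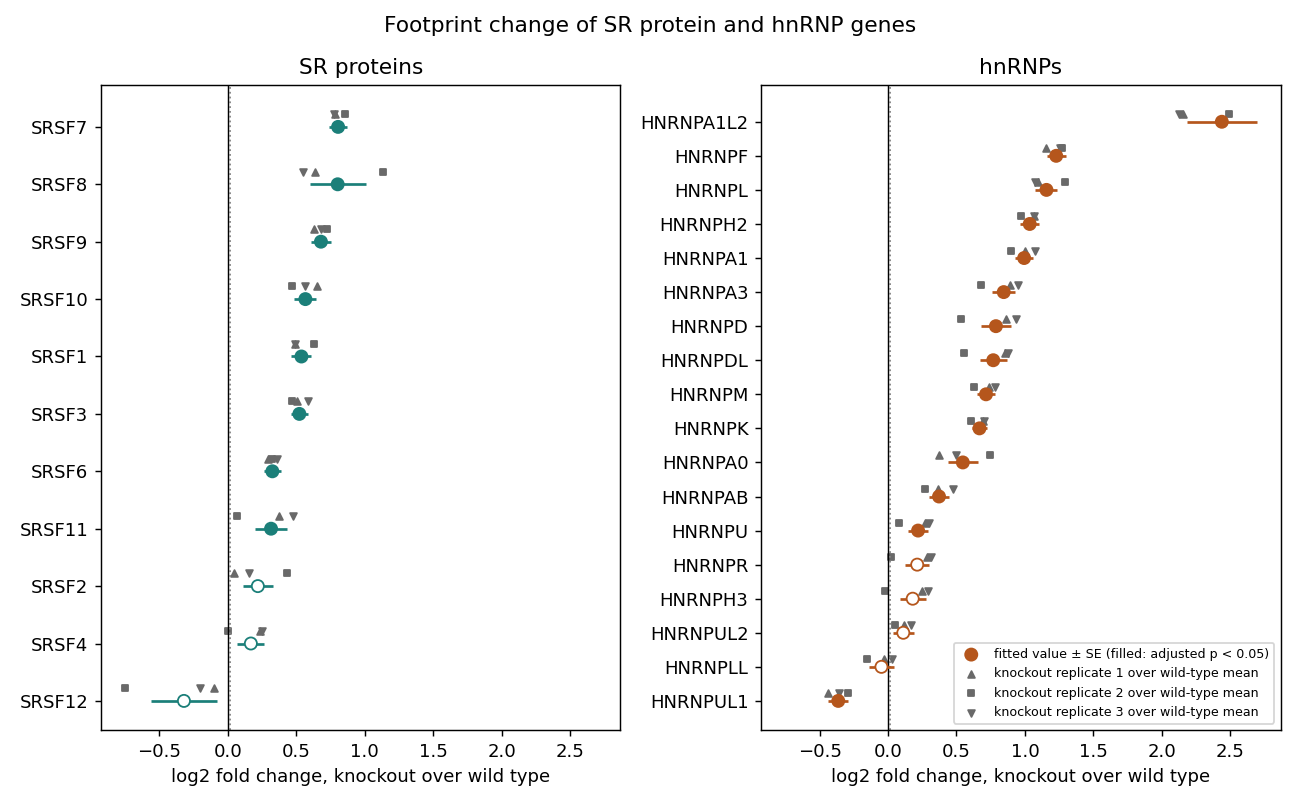
Log2 fold change, knockout over wild type, of each SR protein (left) and hnRNP (right). Circles are fitted values with their SE, filled where the adjusted p was under 0.05; triangles and squares are the 3 knockout libraries against the wild-type mean on the log2(CPM + 0.5) scale, the dotted line is the median of all rows, and HNRNPCL4 is not drawn. SR proteins run from -0.32 to 0.80 and hnRNPs from -0.36 to 2.44.

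Among the SR proteins that activate splicing, SRSF7 moved most. SRSF7, which shuttles between nucleus and cytoplasm and also acts in mRNA export (ENST00000313117, GRCh38 chromosome 2, 38743599 to 38751494, minus strand, 8 exons), stood at 734, 772 and 728 CPM in the knockout libraries, against 435 and 418 CPM in the wild-type libraries. All its knockout libraries were high and the groups did not overlap, with a log2 fold change of 0.80 ± 0.07 (SE, edgeR adjusted p = 1.10e-05). SRSF3, the smallest member and another export adaptor (GRCh38 chromosome 6, 36594368 to 36605600), gave 1162, 1134 and 1225 CPM in the knockout libraries, against 816 and 819 CPM in the wild-type libraries. Its rise of 0.52 ± 0.06 (adjusted p = 0.000103) was smaller, and the knockout libraries again all lay above the wild-type pair. SRSF1, the founding SR protein, known as an oncogene when overproduced (GRCh38 chromosome 17, 58004849 to 58007346), gave 767, 843 and 764 CPM in the knockout libraries, against 567 and 524 CPM in the wild-type libraries, a rise of 0.54 ± 0.07 (adjusted p = 0.000234).

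SRSF9, a short relative of SRSF1, gave 301, 322 and 313 CPM in the knockout libraries, against 190.2 and 199.9 CPM in the wild-type libraries, a rise of 0.68 ± 0.07 (adjusted p = 5.73e-05). SRSF6 gave 542, 553 and 567 CPM in the knockout libraries, against 443 and 442 CPM in the wild-type libraries, a rise of 0.32 ± 0.06 (adjusted p = 0.00177). For both genes the libraries of a genotype lay close together and the genotypes did not overlap. Scaled by library totals alone, SRSF6 no longer passed (log2 fold change 0.11, adjusted p = 0.158). SRSF2, which binds exonic sites, had a log2 fold change of 0.22 ± 0.11 (adjusted p = 0.114). SRSF4, a member with a long arginine-serine tail, had one of 0.17 ± 0.10 (adjusted p = 0.169). The genotypes overlapped for SRSF2 and for SRSF4. Both passed without knockout replicate 2, at 0.10 (adjusted p = 0.0238) and 0.24 (adjusted p = 3.63e-05), and SRSF2 also without knockout replicate 1 (adjusted p = 0.0286) and with no filter (adjusted p = 0.0429).

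The SR class also holds members that differ in role or origin. SRSF10, which turns into a splicing repressor when it loses its phosphate groups, gave 264, 233 and 249 CPM in the knockout libraries, against 167 and 169 CPM in the wild-type libraries, a rise of 0.57 ± 0.08 (adjusted p = 0.000308). SRSF12, a low-abundance relative of SRSF10, gave 7.99, 4.89 and 7.41 CPM in the knockout libraries, against 8.79 and 8.40 CPM in the wild-type libraries. Its knockout libraries all lay below the wild-type pair, but the difference of -0.32 ± 0.24 did not pass (adjusted p = 0.278). SRSF8, an intronless gene that arose as a copy of SRSF2 (GRCh38 chromosome 11, 95067197 to 95071224, 1 exon), gave 28.5, 40.6 and 26.9 CPM in the knockout libraries, against 17.6 and 18.9 CPM in the wild-type libraries, a rise of 0.80 ± 0.20 (adjusted p = 0.00763). Its knockout replicate 2 was high, and without it the rise was 0.60 (adjusted p = 1.30e-06). Leaving out either wild-type library lost the call, at adjusted p = 0.0789 for the first and 0.0535 for the second. SRSF11, an atypical member, passed narrowly at 0.31 ± 0.12 (adjusted p = 0.0427) and failed in 9 of 13 alternatives, with adjusted p between 1.70e-13 and 0.48. Leaving out any single library other than knockout replicate 2 lost it, at adjusted p = 0.0796 without knockout replicate 1, 0.127 without knockout replicate 3, 0.27 without wild-type replicate 1 and 0.12 without wild-type replicate 2.

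The hnRNP H/F proteins, which bind runs of guanines, rose by more than any SR protein in 2 of 3 cases. HNRNPF (ENST00000356053, GRCh38 chromosome 10, 43385617 to 43408882, minus strand) gave 1111, 1209.6 and 1199 CPM in the knockout libraries, against 519 and 482 CPM in the wild-type libraries. Its knockout level was 2.34 times the wild-type level, a log2 fold change of 1.23 ± 0.07 (adjusted p = 1.75e-06). HNRNPH2 (GRCh38 chromosome X, 101408295 to 101414133) gave 640.3, 597 and 639 CPM in the knockout libraries, against 313 and 298 CPM in the wild-type libraries, a rise of 1.03 ± 0.07 (adjusted p = 4.11e-06). In both genes every knockout library stood far above the wild-type pair. HNRNPH3 had a log2 fold change of 0.18 ± 0.10 (adjusted p = 0.131), overlapped between genotypes, and passed without knockout replicate 2 (0.27, adjusted p = 9.47e-10).

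HNRNPL, which binds CA repeats, and its relative HNRNPLL, known for regulating CD45 splicing in T cells, differed. HNRNPL (GRCh38 chromosome 19, 38836388 to 38850333) gave 1133, 1299.5 and 1120.0 CPM in the knockout libraries, against 538 and 524 CPM in the wild-type libraries, a rise of 1.16 ± 0.08 (adjusted p = 4.82e-06). HNRNPLL gave 102, 94.2 and 107 CPM in the knockout libraries, against 102 and 107 CPM in the wild-type libraries, a difference of -0.05 ± 0.09 (adjusted p = 0.66). With library totals HNRNPLL passed as lower (-0.27, adjusted p = 0.0217). Per kb of coding sequence, HNRNPL exceeded HNRNPLL 10.2, 12.7 and 9.62 times in the knockout libraries, against 4.84 and 4.49 times in the wild-type libraries. This ratio within a library does not depend on scaling, and the groups did not overlap. The pair was chosen after its values were seen, and its ratio was given no test.

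The hnRNP A and D families, which shuttle with mRNA and antagonise SR proteins or bind AU-rich elements, rose throughout. HNRNPA1, the best known antagonist of SRSF1 in splice site choice (ENST00000546500, GRCh38 chromosome 12, 54280193 to 54287087, plus strand), gave 2182, 2032 and 2292 CPM in the knockout libraries, against 1070.0 and 1107 CPM in the wild-type libraries. The log2 fold change was 0.99 ± 0.07 (adjusted p = 4.33e-06). HNRNPA3 and HNRNPA0 rose by 0.85 ± 0.08 (adjusted p = 3.37e-05) and 0.55 ± 0.11 (adjusted p = 0.00193). HNRNPA0 was highest in knockout replicate 2, and its rise was 0.44 without that library (adjusted p = 9.37e-15). HNRNPD, also called AUF1 and known for the decay of mRNAs with AU-rich elements, rose by 0.79 ± 0.11 (adjusted p = 0.000258), its relative HNRNPDL by 0.77 ± 0.10 (adjusted p = 0.000146), and HNRNPAB by 0.37 ± 0.07 (adjusted p = 0.00207). With library totals HNRNPAB did not pass (0.15, adjusted p = 0.0819). For all 6 of these genes every knockout library lay above both wild-type libraries.

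HNRNPA1L2, an intronless copy of HNRNPA1 (ENST00000357495, GRCh38 chromosome 13, 52642425 to 52643796, plus strand), had the largest fold change among members counted in both genotypes. It had 346, 260 and 366 counts in the knockout libraries, against 17 and 11 counts in the wild-type libraries. Scaled for depth this was 12.7, 16.1 and 12.4 CPM in the knockout libraries, against 2.93 and 2.05 CPM in the wild-type libraries. The groups lay far apart. The log2 fold change was 2.44 ± 0.26 (adjusted p = 5.01e-05). The coding sequences of the pair are both 963 nt and differ at 15 bases, an identity of 98.4%. The stretch of 60 bases with the most differences is shown to make plain how little separates a footprint of one from a footprint of the other (GENCODE release 29 transcripts on GRCh38, sense strand, positions counted from 1 at the start codon). Capitals mark the 3 differences within bases 589 to 648.
HNRNPA1L2, bases 589 to 648: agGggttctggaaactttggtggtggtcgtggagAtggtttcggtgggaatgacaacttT
HNRNPA1, bases 589 to 648: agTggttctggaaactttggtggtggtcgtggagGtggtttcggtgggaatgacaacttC

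Of 934 windows of 30 nt, about the length of a footprint, in the coding sequence of HNRNPA1L2, 60.3% occur unchanged in HNRNPA1 and 74.3% in the transcripts of at least 1 other gene. The way reads with several matching places were counted is not given in the sources used here, so the counts of HNRNPA1L2 and HNRNPA1 are uncertain. The same holds for other members with processed pseudogenes. In HNRNPA1, HNRNPA3 and HNRNPK, 96.8%, 93.8% and 66.5% of coding windows occur in other genes, and in HNRNPL 37.4%. No SR protein exceeds the 44.8% of SRSF6, and SRSF1, SRSF4, SRSF7 and SRSF12 share no window with a gene elsewhere in the genome. HNRNPF, HNRNPDL and HNRNPM share 1.31%, 0.972% and 0.231%, and HNRNPA0 shares none. HNRNPH2 and HNRNPUL2 also lie within annotated readthrough genes, and HNRNPCL4 was not matched to this annotation. At a cut of 50%, chosen after the values were seen, the 4 hnRNPs above it had a median log2 fold change of 0.92. The 14 below it had a median of 0.46, with 9 of these 14 higher and 1 lower. That median lay below the 0.52 of the SR proteins, so the order of the class medians depended on the 4 members and HNRNPCL4.

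**Figure D2:**
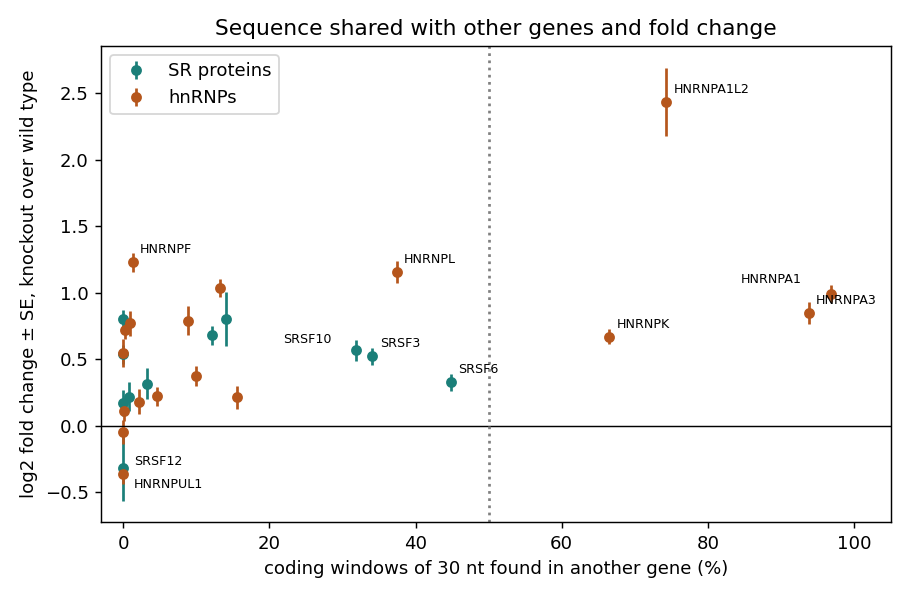
Log2 fold change, knockout over wild type, with its SE (vertical axis) against the percentage of 30-nt coding windows that also occur in another gene (horizontal axis) for the 29 members with an annotated coding sequence. The dotted line marks 50%. The 4 members beyond it, HNRNPA1L2, HNRNPA1, HNRNPA3 and HNRNPK, are all hnRNPs and all rose.

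The remaining hnRNPs ranged from a rise to a fall. HNRNPK, which binds C-rich RNA and DNA through KH domains, gave 2646, 2490.3 and 2660.5 CPM in the knockout libraries, against 1629 and 1643 CPM in the wild-type libraries, a rise of 0.67 ± 0.06 (adjusted p = 1.53e-05). HNRNPM gave 1317, 1221 and 1357 CPM in the knockout libraries, against 807 and 774 CPM in the wild-type libraries, a rise of 0.72 ± 0.07 (adjusted p = 2.67e-05). HNRNPR, a relative of SYNCRIP, did not pass (0.21 ± 0.09, adjusted p = 0.0632), although every knockout library lay above both wild-type libraries. It passed with no filter (adjusted p = 0.0200) and without knockout replicate 2 (0.30, adjusted p = 1.14e-13).

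In the hnRNP U family, whose founder is also a nuclear scaffold protein, the members did not move together. HNRNPU rose narrowly by 0.22 ± 0.07 (adjusted p = 0.0263) and passed in 4 of 13 alternatives, with a log2 fold change of 0.0007 under library totals (adjusted p = 0.993). It failed on leaving out any single library other than knockout replicate 2, with adjusted p = 0.0649 without knockout replicate 1, 0.0931 without knockout replicate 3, 0.181 without wild-type replicate 1 and 0.145 without wild-type replicate 2. HNRNPUL2 was at 0.11 ± 0.07 (adjusted p = 0.223) and passed without knockout replicate 2 (0.14, adjusted p = 0.00244). HNRNPUL1 (GRCh38 chromosome 19, 41264331 to 41307376) was the only member called lower. It gave 223, 247 and 235 CPM in the knockout libraries, against 307 and 298 CPM in the wild-type libraries. It fell by 0.36 ± 0.07 on the log2 scale (log2 fold change -0.36, adjusted p = 0.00238). Its coding sequence of 2571 nt is long for the class, whose median is 1306.5 nt, and those of HNRNPU and HNRNPUL2 are 2421 and 2244 nt. After a spline fit of fold change on coding length and GC content over all rows HNRNPUL1 was at -0.03. The part of coding length in its fall was not tested. Under the same fit HNRNPU and HNRNPUL2 were at 0.43 and 0.37, SRSF3 and SRSF10 were at 0.32 each, and SRSF12 was at -0.54.

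HNRNPCL4, which had few counts, gave 28, 1 and 29 counts in the knockout libraries and none in the wild-type libraries. With 3 counts taken as the limit for both wild-type libraries together, its pooled knockout level of 0.795 CPM was at least 2.96-fold higher. Its single count in knockout replicate 2 was worth 0.0619 CPM, less than 1 count in either wild-type library, so that library cannot be placed above the wild-type pair. Because it passed the filter only through the knockout libraries, its calls are given no weight. In the main fit it stands among the 5 hnRNPs that did not pass (edgeR adjusted p = 0.0837). It was called higher with no filter, with DESeq2, with the replicate block and without knockout replicate 2. The hnRNP counts of those refits include it. The hnRNP median of 0.72 includes the gene on its upper side, where its bound of 1.56 on the log2 scale also lies. Setting the gene at that bound therefore could not move the median and is no check of it. Without the gene the median would lie between HNRNPK at 0.67 and HNRNPM at 0.72.

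Levels per kb of coding sequence placed many members of both classes among the genes with more footprints for their length. Such levels reflect the amount of mRNA as well as its translation. The median member stood at 399 CPM per kb for the SR proteins and 524 CPM per kb for the hnRNPs, against 16.0 CPM per kb over all tested rows. SRSF3 was highest, at 2348, 2290.1 and 2475 CPM per kb in the knockout libraries, against 1648 and 1655 CPM per kb in the wild-type libraries. HNRNPA1 and HNRNPK followed at means of 2252 and 1863 CPM per kb in the knockout libraries, against 1131 and 1173 CPM per kb in the wild-type libraries. SRSF3 and HNRNPA1 overlapped in the knockout libraries but not in the wild-type libraries, where HNRNPK lay just above HNRNPA1. SRSF12 and HNRNPA1L2 were lowest, at 8.61 and 14.3 CPM per kb in the knockout libraries, against 10.9 and 2.59 CPM per kb in the wild-type libraries. In the wild-type libraries HNRNPF, at 416 and 386 CPM per kb, overlapped HNRNPH3, at 412 and 417 CPM per kb, whereas in the knockout libraries HNRNPF at 890.5 to 969 lay above HNRNPH3 at 409 to 508 CPM per kb.

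**Figure D3:**
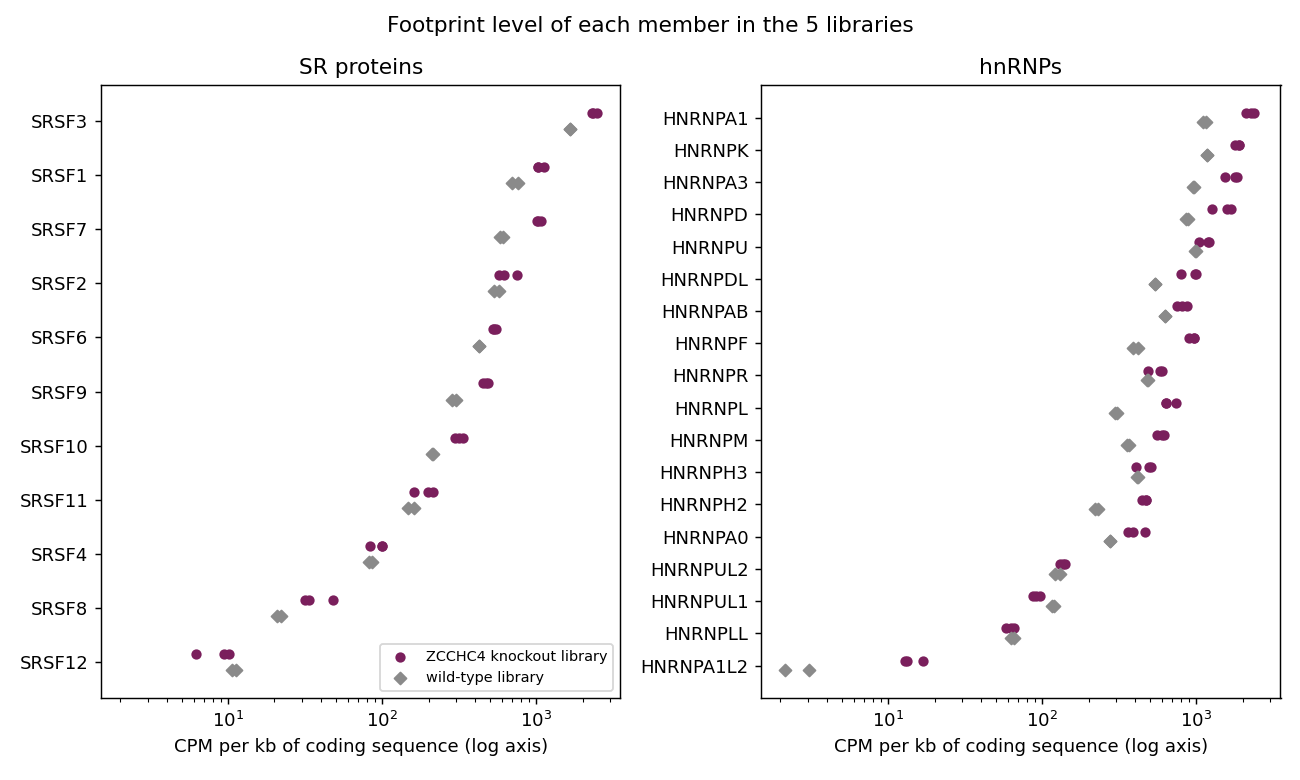
Footprint level of each SR protein (left) and hnRNP (right) in CPM per kb of coding sequence on a log axis, with circles for the 3 knockout libraries and diamonds for the 2 wild-type libraries. HNRNPCL4 is not drawn because it has no coding length here. Knockout points lie right of the wild-type points for most members, and left of them for SRSF12 and HNRNPUL1.

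As a contrast of the classes, the share of each library's counts was summed. SR protein genes took 0.443 ± 0.0107% of counts in the knockout libraries and 0.366 ± 0.00301% in the wild-type libraries (SD, n = 3 and n = 2). The hnRNP genes took 1.87 ± 0.0908% in the knockout libraries and 1.41 ± 0.0013% in the wild-type libraries. Counts of hnRNPs exceeded those of SR proteins 4.38, 3.92 and 4.40 times in the knockout libraries, against 3.82 and 3.87 times in the wild-type libraries. Knockout replicate 2 stood close to the wild-type pair, and the ratio of the group means was 1.10, or 1.14 without that library. Leaving out HNRNPA1 brought this ratio of means to 1.07 and leaving out HNRNPU to 1.16, the ends of the range over members. Without the 4 hnRNPs whose windows are mostly shared, the class ratio was 2.90, 2.60 and 2.91 in the knockout libraries, against 2.69 and 2.72 in the wild-type libraries, and the genotypes overlapped. The classes were not shown to differ in their response, since no test of that difference was made.

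The classical antagonists HNRNPA1 and SRSF1, paired after their values were seen, gave a ratio per kb of 2.21, 1.87 and 2.33 in the knockout libraries, against 1.46 and 1.64 in the wild-type libraries. The groups did not overlap, and the ratio of the means was 1.38. Nearly all coding windows of HNRNPA1 are shared with other genes and none of those of SRSF1.

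**Figure D4:**
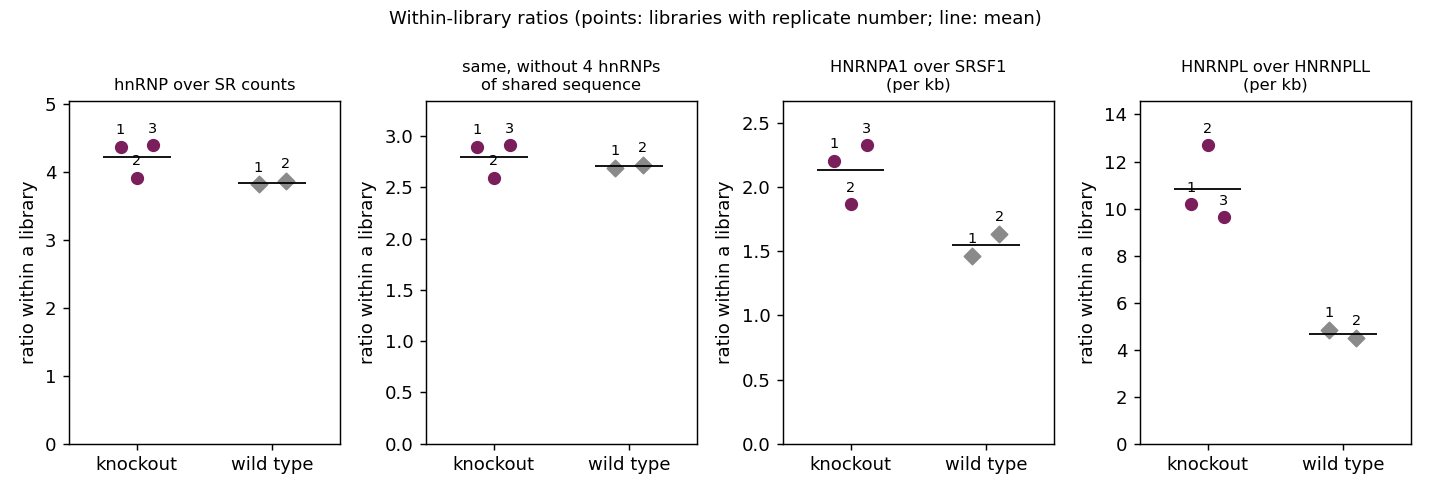
Ratios within each library: hnRNP over SR protein counts, the same without 4 hnRNPs of mostly shared sequence, and HNRNPA1 over SRSF1 and HNRNPL over HNRNPLL per kb of coding sequence. Points are libraries marked by replicate number (circles knockout, diamonds wild type), lines are means, and axes start at 0. The genotypes overlap in the second panel and not in the others.

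Knockout replicate 2 departed from the other knockout libraries along the GC content of the coding sequence. Its log2 ratio to the mean of replicates 1 and 3 had a Spearman correlation of 0.67 with GC content over 11075 rows and of 0.60 over the 29 members with a coding sequence, whose points share the same 3 libraries (Pearson 0.57 and 0.69). Over all rows the median ratio was -0.22 for genes below 45% GC and 0.31 for genes of at least 60% GC. SRSF8, SRSF2 and HNRNPA0, the members with the highest GC content at 65.5%, 66.5% and 64.3%, were higher in replicate 2, at 0.55, 0.33 and 0.31. HNRNPLL, SRSF10 and SRSF12, the members with the lowest GC content at 43.95%, 43.98% and 45.17%, were lower, at -0.15, -0.14 and -0.65. Of the hnRNPs 14 of 19 were lower in replicate 2, against 6 of 11 SR proteins and 49.7% of all rows. The 14 include HNRNPCL4, which had 1 count there against 28 and 29 and has no GC content here. The order was loose: HNRNPA1L2 and SRSF7, at 47.0% and 48.7% GC, were higher at 0.36 and 0.08, and HNRNPM, HNRNPAB and HNRNPUL2, at 55.54% to 55.7% GC, were lower at -0.13, -0.15 and -0.09. Without replicate 2 the test called 10 of 11 SR proteins and 17 of 19 hnRNPs, HNRNPCL4 among them, higher, where 37.3% of all rows were, and 1 hnRNP lower, where 35.9% were. SRSF12 and HNRNPLL were the members that passed in neither fit. The fold change between genotypes had Spearman correlations with GC content of -0.09 over all rows and 0.04 over the members. With coding length they were -0.16 over all rows, -0.22 over the members, -0.29 over the SR proteins and -0.46 over the hnRNPs. The part of GC content or coding length in these calls was not tested.

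**Figure D5:**
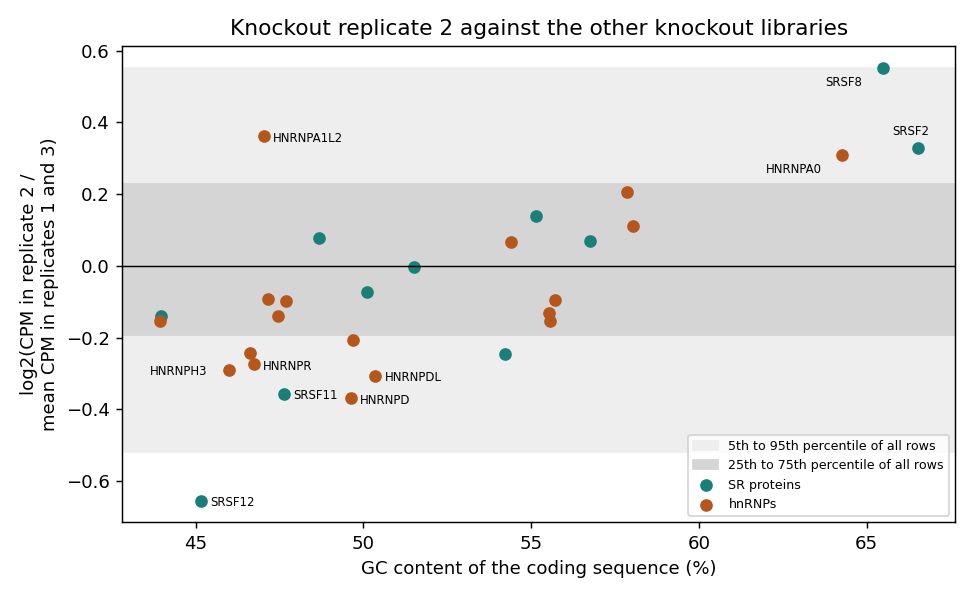
Log2 ratio of the CPM in knockout replicate 2 to the mean CPM in knockout replicates 1 and 3 (vertical axis) against the GC content of the coding sequence (horizontal axis) for SR proteins and hnRNPs, without HNRNPCL4. Grey bands give the spread of all tested rows. Members of high GC content such as SRSF8 at 0.55 lie above 0, and SRSF12 at -0.65 lies lowest.

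The annotation gave a feature that the choice of members did not use. All 11 SR protein genes have at least 1 transcript annotated as a target of nonsense-mediated decay, against 10 of the 18 hnRNP genes in the annotation and 43.2% of tested genes. SRSF7 has 6 such transcripts and HNRNPU 9. The table gives a single count for each gene's transcript, so footprints on these isoforms were not separated.

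Genes that act with the members gave mixed counts, each to be read against the 30.2% higher and 29.8% lower of all rows. Of 8 tested rows for kinases, a phosphatase and an importin of SR proteins, 5 rose and none fell (median 0.38). CLK1, a kinase that phosphorylates SR proteins in the nucleus, gave 38.6, 32.5 and 37.8 CPM in the knockout libraries, against 11.9 and 9.89 CPM in the wild-type libraries (1.74 ± 0.15, adjusted p = 1.52e-05), and CLK3 rose by 0.69 ± 0.11 (adjusted p = 0.000716). Of 20 SR-related proteins 11 rose and 2 fell (median 0.44), led by the U1 snRNP proteins LUC7L (1.86 ± 0.10, adjusted p = 1.26e-06) and SNRNP70 (1.23 ± 0.10, adjusted p = 8.84e-06). Of 15 relatives of hnRNPs under other symbols 5 rose and 6 fell (median 0.01), with the poly(C)-binding protein gene PCBP1 at 1.06 ± 0.08 (adjusted p = 1.03e-05) and the nuclear matrix protein gene MATR3 at 1.00 ± 0.09 (adjusted p = 2.54e-05).

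Of 20 other splicing regulators 9 rose and 5 fell (median 0.19). ESRP1, an epithelial splicing regulator, gave 6.45, 6.13 and 6.30 CPM in the knockout libraries, against 53.3 and 51.3 CPM in the wild-type libraries. It fell by 3.05 ± 0.11 on the log2 scale (log2 fold change -3.05, adjusted p = 1.33e-07), while RBM10 rose by 1.12 ± 0.10 (adjusted p = 1.55e-05). Of 16 nonsense-mediated decay and exon junction factors 6 rose and 5 fell (median -0.12), with EIF4A3, a core exon junction protein, at 0.76 ± 0.07 (adjusted p = 1.75e-05) and SMG9 at 1.12 ± 0.13 (adjusted p = 7.87e-05). Of 11 arginine methyltransferases, their cofactors and importins of hnRNPs 5 rose and 3 fell (median 0.12), with the PRMT5 partners WDR77 at 1.54 ± 0.11 (adjusted p = 6.12e-06) and CLNS1A at 0.98 ± 0.10 (adjusted p = 5.63e-05).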

How the data were processed

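The data are ribosome footprints of HAP1 cells in 5 libraries. Per the labels' protocols, lysates with cycloheximide were digested with RNase I, and footprints of monosomes were cut from a gel. The deposited table gives whole-number counts per transcript, not normalized; Bowtie and hg38 are named in the submitters' processing notes. The counting tool, annotation, duplicate removal, strand and handling of multiply mapping reads are steps not given in the sources used here. Header names start 1 cell left of their values and were moved right; no row lacked a gene name. Transcripts were matched to GENCODE release 29 (13533 rows matched, 105 not).

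The main test was edgeR 4.0.16 under R 4.3.3: TMM scaling, a filterByExpr minimum count of 10, then glmQLFit and glmQLFTest on a model of genotype alone. The procedure was tested on simulated data, with changes placed in genes drawn from all tested rows. It recovered 6% of 1.25-fold, 52% of 1.5-fold, 66% of 2-fold and 82% of 4-fold changes, with 5 false calls among 11005 unchanged genes. Few genes were changed in the simulation, whereas 60.0% of real rows were called. The median tested row stood at 16.0 CPM per kb, against 399 for the SR proteins and 524 for the hnRNPs. These rates are therefore not those of the members. Not passing still does not show that a gene was unchanged. The SE is the size of the log2 fold change divided by the square root of F. Alternatives were RLE, upper quartile and library-total scaling, no filter, a mean count of at least 50, DESeq2 1.42.0, a replicate block, summed wild-type libraries, each library left out, and residuals of a spline (4 degrees of freedom) on coding length and GC content. Floors of 3 counts cover counting error only. The members and lists were chosen with earlier results of these data known. Values in every library are given for the 6 members of each class with the smallest adjusted p, the 2 most abundant per kb and the member with the largest p; HNRNPA1L2, HNRNPUL1, HNRNPCL4 and SRSF8 were added after their values were seen. In related lists the 2 genes with the smallest adjusted p are named.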

Additional observations from a re-analysis of the deposited data

How the results depend on the processing

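The counts of members called higher stayed within 1.5 times in the refits that kept at least 2 libraries of each genotype. They lay between 6 and 10 of 11 for the SR proteins and between 11 and 17 of 19 for the hnRNPs. No SR protein was called lower in any of these refits. The 17 hnRNPs, called without knockout replicate 2, include HNRNPCL4, which had no wild-type count. The hnRNP counts with no filter, DESeq2 and the replicate block include it too. Library totals moved the median of all rows by -0.22, gave 2391 rows higher and 4563 lower in place of 3380 and 3341, and called 2 hnRNPs lower in place of 1. The hnRNP median was then 0.50 and the SR median 0.30. Relative to the median of all rows they were 0.70 and 0.51, as with TMM scaling. A change of scaling shifts all rows nearly equally, so these relative values could hardly move and are no check. The SR median was 0.46 with the upper quartile, 0.56 with no filter, 0.45 at a mean count of at least 50, between 0.48 and 0.52 on leaving out a library, and 0.32 as a residual from coding length and GC content; the cause was not tested. With the replicate number as a block, 7 SR proteins and 13 hnRNPs were called higher, the SR median was 0.49, and 6094 rows were called in place of 6721. The numbers pair the libraries by no label, so the block was not used in the report. The deviations of same-numbered libraries had correlations of -0.07 and -0.07. These cannot decide on pairing, since the deviations of 2 wild-type libraries mirror each other and hold little beyond counting noise. The ratio of hnRNP to SR counts, knockout over wild type, was 1.10, between 1.08 and 1.14 on leaving out a library and 1.04 without the 4 hnRNPs of shared sequence, an alternative chosen after seeing the data. Where a wild-type library is left out, the lone sample is assumed to vary like the knockout libraries. The wild-type libraries, the shallower group, held 17 and 11 counts of HNRNPA1L2, 51 and 45 of SRSF12 and none of HNRNPCL4, which limits the precision of these members.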

Other observations

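HNRNPCL4 had the lowest ratio of knockout replicate 2 to knockout replicates 1 and 3 among 11122 rows with a count there, at -4.02 on the log2 scale, from 1 count against 28 and 29. Within libraries and per kb, HNRNPF exceeded HNRNPH3 1.81, 2.37 and 1.89 times in the knockout libraries, against 1.01 and 0.927 times in the wild-type libraries. HNRNPU exceeded HNRNPUL1 13.7, 10.8 and 13.2 times in the knockout libraries, against 8.17 and 8.54 times in the wild-type libraries. SRSF7 exceeded SRSF4 10.3, 12.8 and 10.1 times in the knockout libraries, against 7.36 and 6.79 times in the wild-type libraries. These pairs were chosen after their values were seen, and in each the genotypes did not overlap.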
